A study of Mus musculus with 2 samples.

Results

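The smooth muscle contractile genes described here are 10 genes of the actomyosin apparatus of the myometrium, the muscular wall of the uterus: Acta2, Actg2, Tagln, Cnn1, Myh11, Des, Tpm1, Tpm2, Mylk and Smtn. They were chosen by gene symbol, and 10 of 10 were found among the 20634 genes listed. Expression was measured by RNA-seq of whole uterus, with all cell types together, from pregnant mice mated at 6 to 8 weeks of age and killed on gestational day 4, with the vaginal plug counted as day 1. One group is labelled Mettl3 f/f and the other Mettl3 ed/ed, each with 1 library, and the comparison asks how expression in the uterus differs between these genotypes. Mettl3 encodes the catalytic subunit of the enzyme that writes N6-methyladenosine on RNA. The labels explain neither the letters f and ed nor the cells in which the gene is altered, and do not give the number of animals behind a library. With 1 library per genotype there is no replicate spread and no test, so every comparison below is of 1 library with 1 other. The level of Mettl3 itself was 10.6 FPKM for the f/f label and 10.2 FPKM for the ed/ed label, so the transcript level does not check the labels.

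Smooth muscle contracts when calcium, bound to calmodulin, activates myosin light chain kinase, which phosphorylates the light chains of smooth muscle myosin and lets it pull on actin filaments. Calponin, tropomyosin and other proteins sit along those filaments and set how actin meets myosin, and desmin filaments carry the force through the cell. Many of these genes are known targets of serum response factor, which binds CArG boxes together with the coactivator myocardin. In the uterus the largest store of such cells is the myometrium, and vessel walls hold more of them.

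Of the contractile genes, 8 of 10 had a higher FPKM in ed/ed than in f/f. Wherever a pair of levels is given, f/f comes first. FPKM are fragments scaled to transcript length and to library size, so levels can be compared between genes. A pseudocount of 1 FPKM was added to each value, ratios are the log2 of ed/ed over f/f, and folds are on that scale. Cnn1 (calponin) had the largest ratio, 2.5-fold, followed by Actg2 (1.96-fold), Tagln (1.89-fold) and Tpm2 (1.66-fold). Des, Acta2, Myh11 and Smtn were 1.18-fold to 1.32-fold higher, Mylk was at nearly the same level, and Tpm1 was 1.63-fold lower. A gene was called at 2-fold, a rule of size in place of a test. By it 1 of the 10 members was called higher, beside 2.68% of the 12165 genes that reached 1 FPKM in at least 1 library. No member (0 of 10) was called lower, beside 6.22% of those genes. All 10 members had a mean of at least 20 FPKM, and among the 3571 genes at such levels 2.3% were called higher and 4.7% lower. The median log2 ratio of the members was 0.38, against -0.26 over all genes compared and -0.19 among those abundant genes. Of all genes 29.6% had a ratio above 0, and 33.2% of the abundant ones. In bulk tissue, more cells of a type and more RNA per cell cannot be told apart.

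Promoters of 7 of the 10 members were matched by symbol in RefSeq windows on GRCm38.p6. Actg2, Tagln and Myh11 were not matched. The windows run from 250 bases before to 50 after the RefSeq start. In 6 of the 7 the 250 bases before it reach into the gene as GENCODE draws it, where transcripts start farther upstream. For Mylk and Smtn all 250 lie inside the gene, so these windows do not cover its outermost GENCODE start. Sequence is printed 5′ to 3′ on the strand of the gene. For Acta2, whose window held the CArG matches described below, each match is shown in 30 bases, with the match in capitals. For Cnn1, which had the largest ratio, and Tpm1, which had the lowest, the bases before the first GENCODE start are shown, 213 and 57 in number. They lie at chr19:34255438-34255467 and chr19:34255388-34255417 (Acta2, minus strand), chr9:22099003-22099215 (Cnn1, plus strand) and chr9:67049407-67049463 (Tpm1, minus strand).
Acta2, first match: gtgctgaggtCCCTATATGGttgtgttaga
Acta2, second match: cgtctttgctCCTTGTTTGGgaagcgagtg
Cnn1: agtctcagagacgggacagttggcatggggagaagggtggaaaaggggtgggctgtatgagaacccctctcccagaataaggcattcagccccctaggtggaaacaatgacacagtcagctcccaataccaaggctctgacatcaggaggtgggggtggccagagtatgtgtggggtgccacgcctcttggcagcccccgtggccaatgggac
Tpm1: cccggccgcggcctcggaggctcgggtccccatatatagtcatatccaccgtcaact
The exact CArG box, which reads the same on both strands, had 0 matches in the 7 windows of 300 bases, and 1.63% of the 32851 windows of all genes held it. The form with 1 C or G inside, searched after the exact form gave no match, was found in 1 of the 7 windows, that of Acta2, and in 8.5% of all windows. Its first copy, CCCTATATGG, spans bases 84 to 75 before the start, and its second, CCTTGTTTGG, spans bases 34 to 25. Both are counted from the RefSeq start and lie inside the GENCODE bounds of Acta2, which begin 217 bases farther upstream. Whether they lie in an exon was not checked. These are matches of letters in the windows searched, and enhancers and introns were not read.

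The actins of the thin filament come first. Acta2, the smooth muscle alpha-actin gene of vessels and myometrium (ENSMUSG00000035783, chromosome 19, positions 34241090 to 34255590, minus strand, GRCm38), measured 140 FPKM in f/f against 178 FPKM in ed/ed. Its log2 ratio was 0.35. Actg2, the gamma-actin gene typical of visceral muscle such as gut and uterus (ENSMUSG00000059430, chromosome 6, 83512905 to 83536265, minus strand), measured 68.8 FPKM in f/f against 136 FPKM in ed/ed. Its log2 ratio was 0.97, just short of 2-fold. The level of Actg2 was 0.491 of that of Acta2 within f/f and 0.76 within ed/ed, so the visceral actin made up more of the muscle actin signal in ed/ed. Because both levels come from the same library, this ratio does not depend on how the libraries are scaled.

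Among genes of proteins that bind the actin filament, Cnn1 had the largest ratio of the 10 members and Smtn one of the smaller ones. Cnn1 encodes calponin, which binds actin and lowers the activity of myosin (ENSMUSG00000001349, chromosome 9, 22099216 to 22109630, plus strand). It measured 48.2 FPKM in f/f against 122 FPKM in ed/ed, a log2 ratio of 1.32, and 165 of the 12165 genes had a higher ratio. About 1878 and 4517 fragments were estimated to lie behind these levels, which gives the ratio of 2.53 an interval from 2.4 to 2.67 for counting error alone. In the ranking of all 20634 genes by level, Cnn1 stood at position 1585 in f/f against 500 in ed/ed. Tagln encodes transgelin (SM22), an early marker of smooth muscle that cross-links actin (ENSMUSG00000032085, chromosome 9, 45929619 to 45936058, minus strand). It measured 133 FPKM in f/f against 251 FPKM in ed/ed, the most abundant member in ed/ed, with a log2 ratio of 0.92. Smtn encodes smoothelin, a protein of contractile smooth muscle (ENSMUSG00000020439, chromosome 11, 3517523 to 3540612, minus strand), and was the least abundant member, at 21.5 and 25.7 FPKM.

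The tropomyosins lie in the groove of the actin filament, and the members of this family went in opposite directions. Tpm2 (ENSMUSG00000028464, chromosome 4, 43514711 to 43523765, minus strand), which encodes beta-tropomyosin, measured 69.3 FPKM in f/f against 116 FPKM in ed/ed, a log2 ratio of 0.73. Tpm1 (ENSMUSG00000032366, chromosome 9, 67022590 to 67049406, minus strand), which encodes alpha-tropomyosin, measured 292 FPKM in f/f against 179 FPKM in ed/ed, a log2 ratio of -0.70. It was the most abundant member in f/f, with 32.7% of the members' summed FPKM, and held 15.5% in ed/ed. Within a library the ratio of Tpm2 to Tpm1 was 0.237 in f/f against 0.645 in ed/ed, 2.72 times as high, whatever the scaling. Tpm1 has 21 annotated transcripts, 16 of them coding, the most of the 10 members, and is known to make both muscle forms and short forms of non-muscle cells. The deposited tables give 1 value per gene, so the forms were not compared.

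Of the myosin motor and its kinase, the heavy chain was slightly higher and the kinase nearly level. Myh11, the smooth muscle myosin heavy chain gene (ENSMUSG00000018830, chromosome 16, 14194535 to 14291372, minus strand), measured 27.7 FPKM in f/f against 34.6 FPKM in ed/ed, a log2 ratio of 0.31. Mylk, the myosin light chain kinase gene (ENSMUSG00000022836, chromosome 16, 34745210 to 35002420, plus strand), was at 41.6 and 41.4 FPKM. The counting interval around its ratio of 0.994 ran from 0.958 to 1.03. Its log2 ratio of -0.01 became positive when the libraries were scaled in any of 4 other ways (0.077 to 0.36). Des, the muscle intermediate filament gene desmin (ENSMUSG00000026208, chromosome 1, 75360329 to 75368579, plus strand), measured 52.7 FPKM in f/f against 70.1 FPKM in ed/ed, a log2 ratio of 0.41.

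Counted together, the members summed to 895 FPKM in f/f against 1154 FPKM in ed/ed, 1.29 times as much. Without Tpm1 the sums were 603 and 975 FPKM, 1.62 times as much. The members took 0.171% of all listed FPKM in f/f against 0.235% in ed/ed, and 9 of 10 stood nearer the top of the ranking by level in ed/ed. Mylk was among those 9, at position 1861 in f/f against 1621 in ed/ed, though its FPKM was 41.6 and 41.4. The share of all genes that moved up was not computed. The order of the members' levels was largely kept, with a Spearman correlation of 0.9 between the libraries. The 10 genes are not independent. No spread between libraries of a genotype is known, so it cannot be said which neighbours in that order differ.

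**Figure D1:**
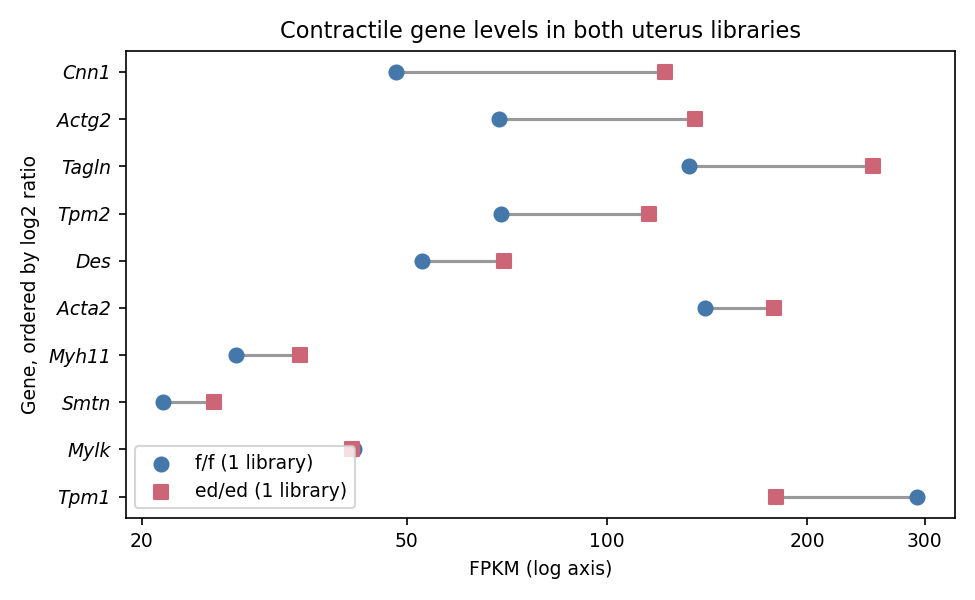
FPKM of the 10 contractile genes on a log axis, with circles for the f/f library and squares for the ed/ed library, ordered by log2 ratio. The square lies to the right of the circle for 8 genes, farthest for Cnn1 (48.2 and 122 FPKM), and to the left for Tpm1 (292 and 179 FPKM).

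Counting error was small beside the larger differences. Estimated fragments per member and library ran from 1235 to 14111, at an estimated 18300000 fragments in all for f/f and 17400000 for ed/ed. The counting interval of the ratio lay above 1 for 8 members, below 1 for Tpm1 and across 1 for Mylk. These intervals cover sampling of fragments and not the spread between animals. They hold for the levels as deposited, and scaling a library moves them. The share of all genes whose interval leaves 1 was not computed.

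Muscle forms of these proteins have close relatives in the cytoskeleton of other cells. The level of a muscle form over its relative within 1 library is not moved by scaling. Of 14 such pairs, 12 were higher in ed/ed and 2 lower, both of the latter with Tpm1. The pairs share genes and are not independent, and Mylk and Smtn were not paired with a relative. Transgelin's relative Tagln2 measured 103 FPKM in f/f against 65.8 FPKM in ed/ed, so that Tagln over Tagln2 was 1.29 and 3.82. The muscle form made up 56.4% of the summed FPKM of this pair in f/f against 79.2% in ed/ed. Cnn1 over Cnn2 was 1.27 and 3.09, with Cnn2 at 38.01 and 39.5 FPKM. Cnn3, the most abundant calponin gene, was at 624 and 563 FPKM, and the share of Cnn1 among the calponins was 6.79% in f/f against 16.9% in ed/ed.

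The myosins and intermediate filaments also had a larger share of the muscle form in ed/ed, and there the relatives were lower. Myh9 and Myh10, the non-muscle myosin heavy chain genes, had 48.3 and 26.9 FPKM in f/f, against 26.8 and 12.4 FPKM in ed/ed. Myh11 thus made up 26.9% of the 3 genes' FPKM in f/f against 46.9% in ed/ed. Vim (vimentin), the filament gene of mesenchymal cells, was at 349 and 174 FPKM, and Des was 13.1% and 28.7% of the sum of Des and Vim. Stroma expresses vimentin strongly, and 11 of 11 stroma markers were lower in ed/ed. The part of stroma in these shares was not tested. The cytoplasmic actin genes Actb (964 and 1154 FPKM) and Actg1 (1196 and 1443 FPKM) were also higher in ed/ed. Acta2 over Actb was 0.145 and 0.155, and Actg2 over Actb was 0.0714 and 0.118. Tpm2 over Tpm3 was 0.315 and 0.551 and Tpm2 over Tpm4 was 0.295 and 0.536, while Tpm1 over Tpm3 was 1.33 and 0.854.

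**Figure D2:**
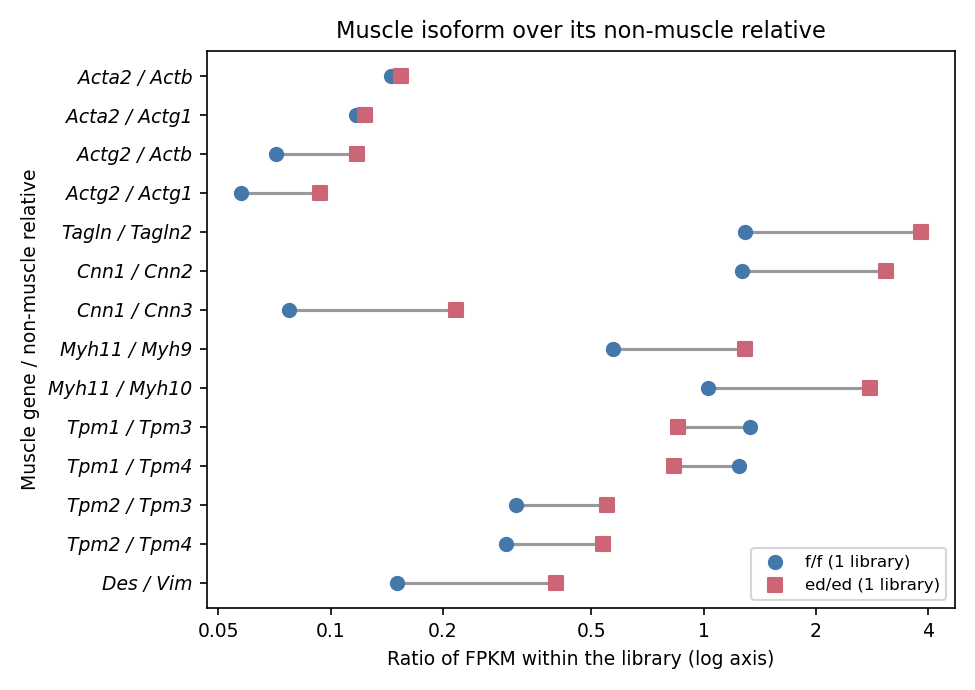
FPKM of each paired muscle gene divided by that of its non-muscle relative within the f/f library (circles) and the ed/ed library (squares), on a log axis. Mylk and Smtn have no pair and are not drawn. The ratio is higher in ed/ed for 12 of 14 pairs, from a near tie for Acta2 over Actg1 (0.117 and 0.124) to Tagln over Tagln2 (1.29 and 3.82), and lower for both pairs with Tpm1.

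The shorter members tended to have the larger ratios, with Tpm1 (2890 nt, the lowest ratio) and Acta2 (2035 nt, a log2 ratio of 0.35) as exceptions. Across the 10 genes the Spearman correlation between log2 ratio and length of the longest coding transcript was -0.68, and over 12158 genes of the same libraries it was -0.22. The 4 members with the largest ratios had transcripts of 1333 (Actg2), 1595 (Tagln), 2175 (Tpm2) and 2381 nt (Cnn1). Myh11 and Mylk had 6549 and 7824 nt. Other coding forms of a gene can be much shorter, such as 1620 nt for Mylk, and which forms were present was not tested. With the trend of all genes on length removed, a step that by construction brings the ratios of all genes to a median near 0, the log2 ratio was 1.53 for Cnn1, 1.07 for Actg2, 1.06 for Tagln and 0.93 for Tpm2. It was 0.70 for Myh11 and 0.41 for Mylk, against -0.47 for Tpm1. So 3 members were then called higher in place of 1, beside 4.32% of all genes, and 0 lower, beside 2.85%. Of the members 9 of 10 lay above 0, and the same 4 genes led. How RNA quality or library making bears on the length trend was not tested.

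**Figure D3:**
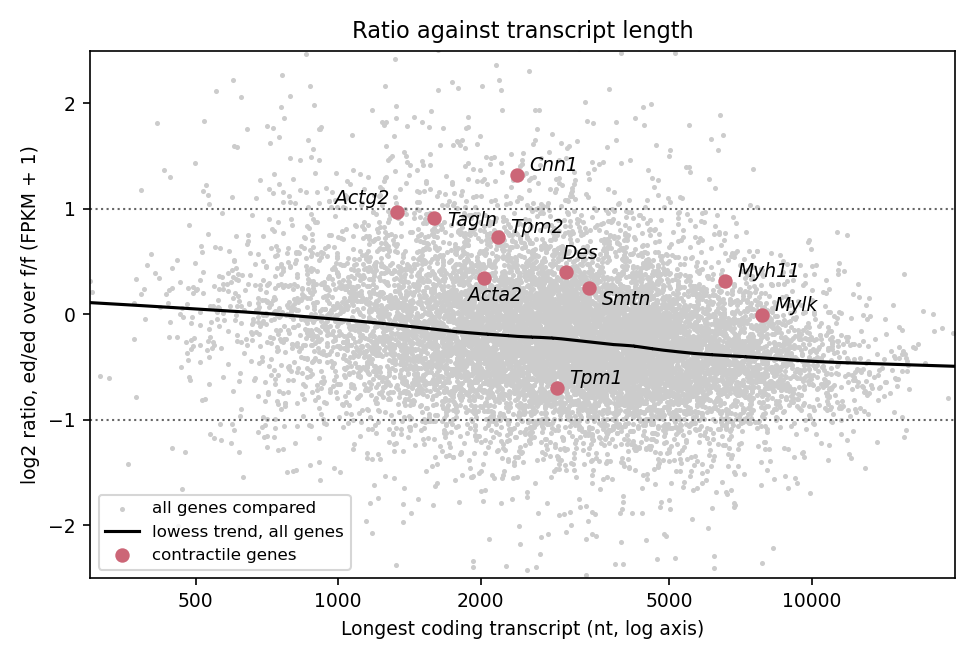
Log2 ratio (ed/ed over f/f) against the longest coding transcript in nt on a log axis, with all genes compared in grey, their lowess trend in black and the contractile genes in red. Dotted lines mark 2-fold; 35 genes lie beyond 2.5 on the vertical axis and 12 outside the length range, and these are not drawn, nor are 7 without a length. Of the contractile genes 9 lie above the trend and Tpm1 below it.

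The scaling of the libraries decided how many members passed 2-fold. Scaling ed/ed to the sum of f/f, by the upper quartile, by the median ratio or by 11 reference genes added 0.09, 0.21, 0.28 and 0.38 to every log2 ratio before the pseudocount. Members called higher then numbered 3, 3, 4 and 4, in place of 1. The genes that joined Cnn1 were Actg2 and Tagln under all 4, and Tpm2 under the median ratio and the reference genes. Of all genes, those scalings called 3.17%, 4.14%, 4.75% and 5.91% higher and 4.99%, 3.81%, 3.25% and 2.69% lower, with 0 members lower under each. The difference between the members' median and the median of all genes lay between 0.64 as deposited and 0.67 under the reference genes. With no filter on low levels, which adds genes listed at 0 in both libraries and so moves the median of all genes to 0, it was 0.38, and with a pseudocount of 5 it was 0.53. Of the members 9 of 10 were above the median of all genes under each scaling, and 8 of 10 with no filter. Tpm1 was lower in ed/ed under each of them. With the call set at 1.5-fold, 4 members were called higher, beside 7.04% of all genes, and Tpm1 was called lower, beside 23.4%.

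**Figure D4:**
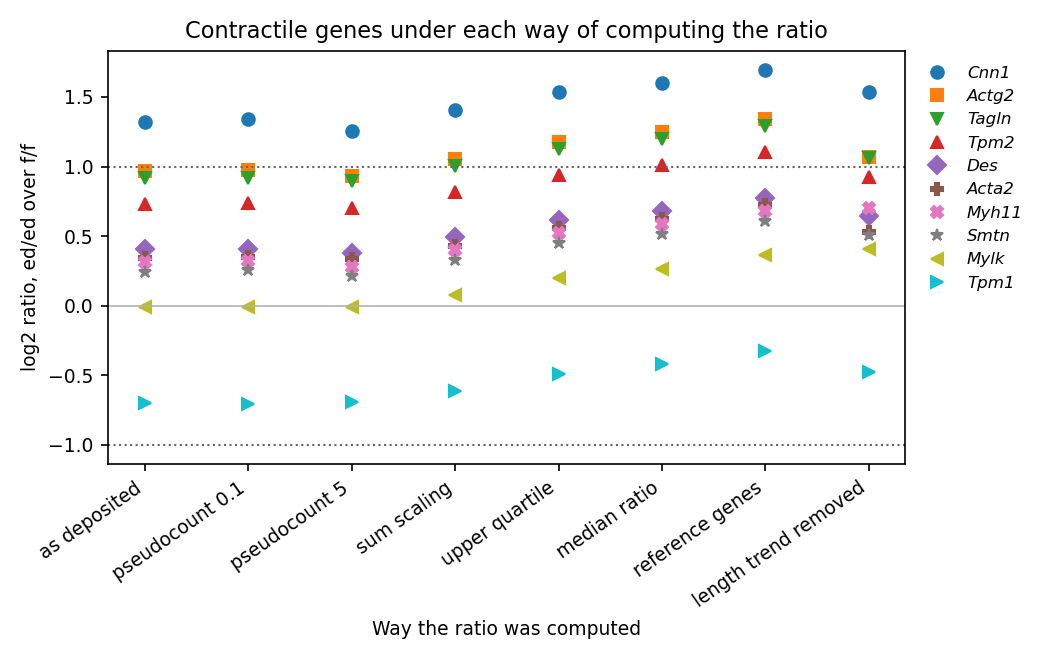
Log2 ratio (ed/ed over f/f) of each contractile gene as deposited and under 7 other ways of computing it, with dotted lines at 2-fold. Cnn1 is above the upper line throughout (1.26 to 1.70), Actg2 and Tagln cross it under the scalings and the length correction, and Tpm1 stays below 0 (-0.70 to -0.33).

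Further genes of the smooth muscle apparatus had, as a list, a median ratio nearer that of all genes. Of 18 further genes of filaments, dense bodies and their anchors, 17 were compared, and 0 were called in either direction. Of all genes 2.68% were called higher and 6.22% lower. The list had a median log2 ratio of -0.18. That median was 0.08 above that of all genes, and turned positive under 2 of the 4 scalings. Within the list, 7 of 17 genes had a ratio above 0, beside 29.6% of all genes. Under the 4 scalings 7 to 13 of the 17 lay above 0. With the length trend removed, which brings the median of all genes near 0, 14 did, with a median of 0.13. The share of all genes above 0 under those settings was not computed. Lmod1 (leiomodin, which nucleates actin filaments) was at 3.18 and 5.47 FPKM, and Csrp1, a LIM protein of smooth muscle, at 123 and 183 FPKM. Myl9, the regulatory light chain that myosin light chain kinase phosphorylates, was at 127 and 177 FPKM, named here after its value was seen. Lower were Vcl (vinculin, an anchor of actin at adhesions), at 26.5 and 13.7 FPKM, and Svil (supervillin), at 15.7 and 9.16 FPKM.

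Genes that set the calcium sensitivity of contraction had mostly lower ratios. Of 15 compared, 13 were below 0 (10 to 13 under the 4 scalings) and 0 were called, with a median of -0.51 (0.25 below that of all genes). As deposited, 29.6% of all genes were above 0. Under the reference genes 1 of the 15 was called higher, beside 5.91% of all genes. Calm3, 1 of the 3 calmodulin genes, was at 124 and 71.6 FPKM, and Ppp1r12a, the targeting subunit of myosin phosphatase, at 25.4 and 14.8 FPKM. Ppp1r14a, which encodes the smooth muscle inhibitor of that phosphatase (CPI-17), went the other way at 35.5 and 56.1 FPKM. Genes of excitation and calcium handling had a median of -0.55 over 14 compared. Of the 14, 3 were called lower (6.22% of all genes) and 0 higher (2.68% of all genes). These 3 were the calcium sensor gene Stim1 (25.7 and 10.5 FPKM), the endothelin receptor gene Ednra (4.72 and 1.75 FPKM) and the chloride channel gene Ano1 (9.28 and 4.1 FPKM). Under the median ratio and under the reference genes 0 were called lower and 1 higher. Of all genes, those 2 scalings called 3.25% and 2.69% lower and 4.75% and 5.91% higher. With the length trend removed, or a pseudocount of 5, 0 were called in either direction. The gap junction gene Gja1, which couples myometrial cells late in pregnancy, was at 46.0 and 25.5 FPKM. The oxytocin receptor gene Oxtr, also named after its value was seen, was under 1 FPKM in both libraries, at 0.261 and 0.424.

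Among regulators of the smooth muscle programme no gene was called as deposited, beside 2.68% of all genes called higher and 6.22% lower. Under the 4 scalings 1 or 2 were called higher, beside 3.17% to 5.91% of all genes. Myocd, the myocardin gene, measured 0.442 FPKM in f/f against 0.547 FPKM in ed/ed, under the level at which genes were compared. Srf, the serum response factor gene, was at 35.6 and 24.8 FPKM, a log2 ratio of -0.50. Of 10 regulators compared, 0 were called, with a median of -0.28, close to that of all genes. The highest ratio was that of Fhl2, a LIM-domain cofactor (4.27 and 9.28 FPKM), and the lowest that of Mef2a, a muscle transcription factor (38.6 and 19.6 FPKM). Mef2c was at 4.49 and 2.13 FPKM and Gata6 at 0.348 and 1.33 FPKM. Mrtfa, Mrtfb, Gucy1a1 and Gucy1b1 were not analysed here.

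Markers of the other cells that could carry contractile genes were set beside the members. Pericytes and vascular smooth muscle express Acta2 and Tagln. Of 9 pericyte markers 9 were lower in ed/ed and 3 were called lower (6.22% of all genes), with a median log2 ratio of -0.83. All 9 were lower under each of the 4 scalings. Under the reference genes or with the length trend removed 0 were called, beside 2.69% and 2.85% of all genes called lower. With that trend removed 7 of 9 lay below 0. Their sum was 153 FPKM in f/f against 72.1 in ed/ed, and 0 of the 9 were listed at 0. Rgs5, a pericyte marker, was at 77.7 and 31.0 FPKM, Notch3 at 3.06 and 0.911, Ndufa4l2 at 14 and 6.34 and Higd1b at 17.0 and 8.02. Rgs5 had the lowest ratio of the 9. The visceral actin gene Actg2 over Rgs5 was 0.886 in f/f against 4.37 in ed/ed, and Acta2 over Rgs5 was 1.80 against 5.75. The pericyte markers therefore had lower levels in ed/ed where 8 of the 10 contractile genes had higher ones, Mylk and Tpm1 being the exceptions. The part of pericytes in the members' values was not tested.

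Most striated muscle markers were at or near 0. Of 18, 10 were listed at 0 in f/f against 8 in ed/ed, among them the cardiac actin gene Actc1 and the myosin genes Myh1, Myh2, Myh4, Myh6 and Myh7 in both libraries. The 18 summed to 21.4 and 27.6 FPKM, beside 895 and 1154 for the contractile genes. Of 5 compared, Tnni2 (1.77 and 9.06 FPKM) and Tnni3 (0.943 and 5.57 FPKM), troponin I genes, were called higher, beside 2.68% of all genes. Mylpf (2.52 and 0.457 FPKM) was called lower, beside 6.22%, while Acta1 was at 9.28 and 5.96 FPKM. Of 5 mesothelium markers 1 was compared, and of 6 adipose markers 0, their sums being at most 1.66 FPKM.

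Markers of stroma and endothelium were lower in ed/ed, and those of epithelium lay on both sides. Of 11 stroma markers 4 were called lower and 0 higher (median -0.81, sum 992 and 516 FPKM). Of 10 endothelium markers compared 7 were called lower and 0 higher (median -1.17, sum 201 and 83.5 FPKM). Of all genes 6.22% were called lower and 2.68% higher. All compared markers of both lists were lower under each scaling. Under the reference genes, and likewise with the length trend removed, only 1 stroma and 2 endothelium markers were called. Those settings called 2.69% and 2.85% of all genes lower. Of 10 epithelium markers 0 were called, with a median of 0.14 and sums of 2803 and 2810 FPKM, and of 6 leukocyte markers compared 0 were called, with a median of 0.20. Endothelial Cdh5 was at 42.0 and 12.01 FPKM and stromal Pdgfra at 28.0 and 9.3 FPKM. Whether the share of muscle in the tissue taken differed between the libraries was not tested. Smooth muscle RNA was present in both libraries, since the 6 markers used for that cell type (Acta2, Actg2, Tagln, Cnn1, Myh11 and Des) were at 27.7 FPKM or more in both libraries.

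**Figure D5:**
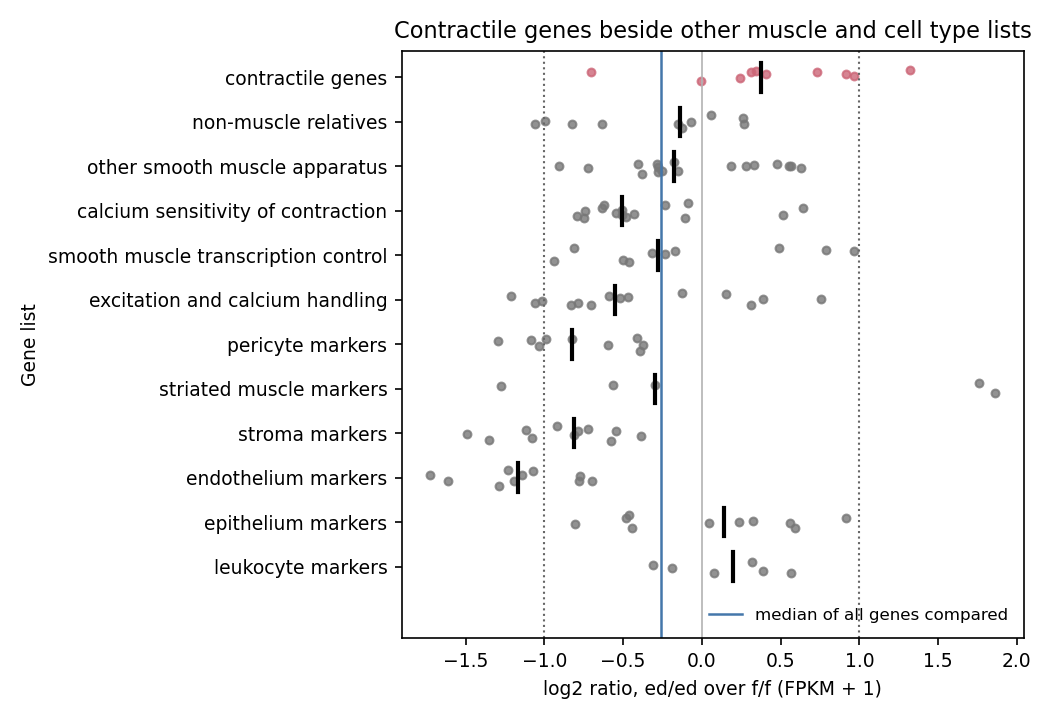
Log2 ratio (ed/ed over f/f) of every compared gene in 12 lists, with a black bar at each median, a blue line at the median of all genes (-0.26) and dotted lines at 2-fold. The contractile genes, in red, have a median of 0.38, whereas the medians of the pericyte, stroma and endothelium markers are -0.83, -0.81 and -1.17.

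Annotated neighbours limit a few values, since no source used here gives the strand of the reads. Exons of Gm48529, an antisense gene, cover 62.4% of the exonic bases of Tagln, and those of Pcsk7, on the opposite strand, cover 5.43%. Pcsk7 was at 9.38 and 8.85 FPKM, far below Tagln. Gm48529 was not found by symbol among the listed genes, so no level of it can be set beside that of Tagln. Antisense or opposite-strand exons also cover 16.3% of Smtn (Gm11946), 5.86% of Des (Gm15179) and 4.87% of Mylk (E130310I04Rik). Exact 50-base matches elsewhere were rare for the actins and tropomyosins, and windows that differ by a base were not counted. Of all 50-base windows of the longest coding transcript, 0.352% of Acta2 and 0.4% of Myh11 occur in a transcript of another gene, and 0 windows of Actg2, Cnn1, Tpm1 or Tpm2 do. For Tagln it was 48.3%, all with the overlapping Gm48529 and Pcsk7.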

How the data were processed

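TRIzol extraction and Illumina TruSeq RNA library preparation are stated per the labels' protocols. The deposited tables hold 1 value per gene, taken here as FPKM. The submitters' processing notes name HISAT2 2.2.1 and Cufflinks 2.2.1 as the tools of the authors. The header names no unit, so FPKM is inferred from Cufflinks and from the values. The notes name the builds mm9 and mm10 without a role, and no source used here gives the annotation or filters.

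Ratios are the log2 of ed/ed over f/f after adding 1 FPKM to each value, which understates differences of low genes. Genes that reached 1 FPKM in at least 1 library were compared, with a call at 2-fold. No p-value or SE was made. Lengths and coordinates came from GENCODE M21 on GRCm38 by Ensembl identifier (20557 genes matched). The length trend was a lowess fit (fraction 0.3, statsmodels 0.14.6) on log2 length. FPKM keeps no total, so the fragments per library were estimated from how low values are spaced in 315 (f/f) and 326 (ed/ed) genes with 1 transcript over 1000 nt, taking 250 nt off each length. Counting intervals are exact 95% binomial intervals on the estimated fragments (scipy 1.17.1). The ratio and the length correction were tested on simulated data, with planted folds larger than any of the members', in genes of at least 20 FPKM. That test does not show how well folds of the members' size are recovered.

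The members and all lists were chosen with earlier results of these data known. Named genes are the 10 members, their non-muscle relatives, Mettl3, Myocd and Srf, and up to 4 genes with the largest absolute ratio of each list described. Alternatives were a 1.5-fold rule, 4 scalings, pseudocounts of 0.1 and 5 FPKM, a filter at 5 FPKM or none and removal of the length trend.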

Additional observations from a re-analysis of the deposited data

How the results depend on the processing

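Of the members' counts and median, 18 of 29 values under the alternatives stayed close to those reported and 11 moved. Counts were held close within 1.5 times and the median within 0.1. Members at least 2-fold higher in ed/ed numbered 3 with ed/ed scaled to the sum of f/f, 3 by the upper quartile, 4 by the median ratio, 4 by the reference genes, 3 with the length trend removed and 4 under the 1.5-fold rule, against 1 as deposited. The length correction called 4.32% of all genes higher and the 1.5-fold rule 7.04%. Under the 1.5-fold rule 1 member, Tpm1, was lower, against 0, beside 23.4% of all genes. The median log2 ratio was 0.59 by the upper quartile, 0.65 by the median ratio, 0.75 by the reference genes and 0.67 with the length trend removed, against 0.38. Other pseudocounts and filters left the counts as they were, but the members' median less that of all genes, 0.64 as reported, was 0.38 with no filter and 0.53 with a pseudocount of 5. Among single members, the sign turned for Mylk alone, to 0.077 (sum), 0.20 (upper quartile), 0.27 (median ratio), 0.36 (reference genes) and 0.41 (length trend removed), and 12 other values came to pass 2-fold, all of Actg2, Tagln or Tpm2. With 1 library per genotype no library could be left out. No paired analysis was possible because each genotype has 1 library.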
